A study of Mus musculus with 8 samples.

Results

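Integrins, syndecans and other receptors for the extracellular matrix were followed across 8 mouse microarrays. The set holds 34 genes out of 20144 genes with a named probe, and it was drawn up by gene family and not by level: 18 integrin alpha chains, 8 integrin beta chains, 4 syndecans, dystroglycan, 2 discoidin domain receptors and the hyaluronan receptor Cd44. Of these, 32 had a probe that could be named, and Itga10 and Itgae are not analysed here. In all, 31 were well above background somewhere: 24 on all 8 arrays and 7 on some. Itgad, a leukocyte alpha chain, was below background on all 8.

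Each group had 1 array. The liver-derived cells came from fetuses at E11.5 and E13.5, at E14.5 and at E17.5, and from newborn mice at P1, postnatal day 1, all sorted as p75NTR-positive, CD45-negative and Ter119-negative after collagenase. Adult hepatic stellate cells (adult HSC), described as vitamin A-positive, were the sixth liver-derived group. The other mesenchymal cells were bone marrow mesenchymal stem cells (MSC, purified) and skin fibroblasts of the embryo grown in culture (MEF). The receptor p75NTR, product of Ngfr, is a surface marker of hepatic stellate cells, and the sort removed cells bearing the leukocyte antigen CD45 and the red cell antigen Ter119. Strain, sex, adult age and any pooling of animals were not stated. The adult cells were chosen by vitamin A and the younger liver cells by p75NTR, so age and sort cannot be told apart between them.

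Integrins are receptors of an alpha and a beta chain that link matrix outside the cell to the actin cytoskeleton inside it. The alpha chain largely sets the ligand: collagens, laminins, fibronectin and other proteins with the tripeptide RGD, or cell-bound partners such as Vcam1. Syndecans are membrane heparan sulfate proteoglycans, dystroglycan is a laminin receptor, discoidin domain receptors are tyrosine kinases that bind collagen, and Cd44 binds hyaluronan. In the liver, stellate cells lie in the space between sinusoidal endothelium and hepatocytes, where they meet these ligands.

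Levels are log2 spot signals relative to the 75th percentile of the same array, so a level of 0 is that percentile. Probes differ in brightness, so a level is compared across arrays and never between genes. On the 8 arrays 58.8% to 64.5% of 43020 non-control spots were well above background and 0 were saturated. The 4 fetal arrays shared a slide, and the P1, adult HSC, MSC and MEF arrays shared another. All 10 stellate markers were above background on each liver-derived array, with a summed signal of 92.1 to 572 times the 75th percentile, against 3.58 on the MSC array and 11.3 on the MEF array. Ptprc, which encodes CD45, was below background on all 6 liver-derived arrays. Erythroid markers summed to 6.29, 19.0, 23.3, 131 and 10.6 times the 75th percentile from E11.5 to P1. Their sum was 0.0782 in adult HSC, 0.0505 in MSC and 0.0584 in MEF. The part of erythroid cells in the member levels was not tested. In bulk RNA, fewer cells of a type and less RNA per cell cannot be told apart.

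The heat map of all measured members shows which arrays stood out for each receptor. The adult HSC array held the highest level of 10 of the 31 measurable members, the MSC array of 8, the MEF array of 6 and the P1 array of 3. Over all genes the adult HSC array held the highest level for 21.1%, the MSC array for 24.4%, the MEF array for 11.1% and the P1 array for 10.9%. No member was highest at E11.5, where 14.4% of all genes had their highest level.

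**Figure D1:**
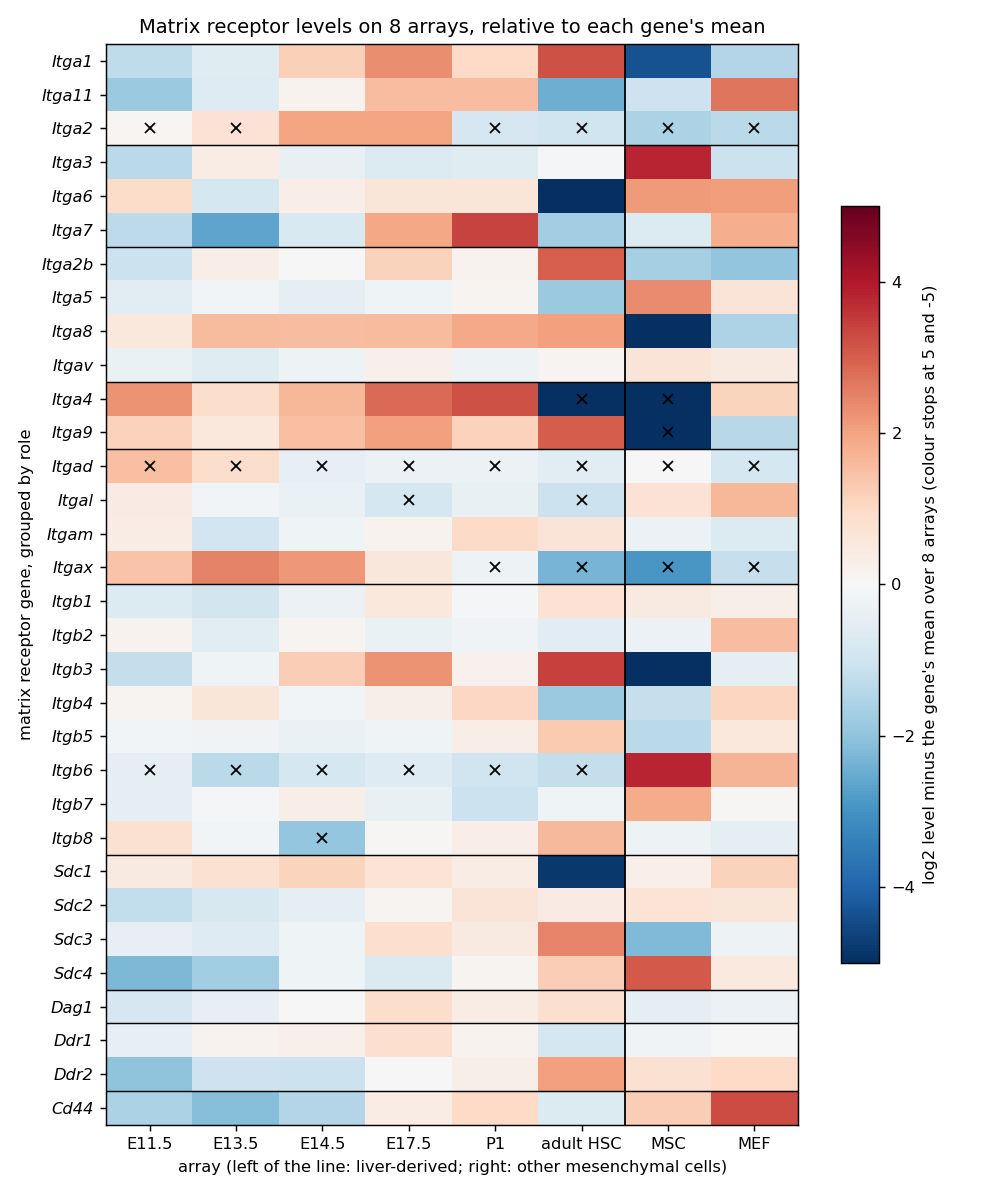
Level of each measured member (rows, grouped by role) on the 8 arrays (columns), as the log2 level minus the mean of that gene over the 8 arrays; crosses mark probes that were not well above background. The adult HSC column is dark blue for Itga6, Itga4 and Sdc1 and red for Itga1, Itga2b, Itga9 and Itgb3, and the MSC column is dark blue for Itga8, Itga9, Itga4 and Itgb3.

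The collagen-binding receptors split between late fetal and adult liver cells. Itga1 pairs with Itgb1 as a receptor for collagen IV and other collagens. Its level was -0.80 at E11.5, -0.15 at E13.5, 1.66 at E14.5, 2.79 at E17.5 and 1.44 at P1, 3.62 in adult HSC, -3.91 in MSC and -1.0 in MEF. Every liver-derived array lay above the MSC and MEF arrays. Itga11, whose product with Itgb1 binds fibrillar collagen, had -0.23 at E11.5, 0.97 at E13.5, 1.79 at E14.5, 3.16 at E17.5 and 3.16 at P1, -0.85 in adult HSC, 0.58 in MSC and 4.27 in MEF. Thus the adult HSC array held the highest Itga1 level and the lowest Itga11 level of the 8. Against P1, adult HSC had 4.56-fold more Itga1 and 16.2-fold less Itga11. Itga2, the alpha chain of a collagen receptor known from platelets and epithelia, was above background only at E14.5 (-4.85) and E17.5 (-4.86).

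Ddr2, a kinase activated by fibrillar collagen and typical of mesenchymal cells, followed Itga1 in adult cells. It had -0.15 at E11.5, 0.83 at E13.5, 0.80 at E14.5, 1.91 at E17.5 and 2.16 at P1, 3.94 in adult HSC, 2.64 in MSC and 2.86 in MEF. Its adult HSC level was 3.44-fold higher than at P1. Ddr1, the relative best known from epithelia, had 0.54 at E11.5, 1.12 at E13.5, 1.18 at E14.5, 1.78 at E17.5 and 1.13 at P1 and was at 0.06 in adult HSC, 0.76 in MSC and 0.97 in MEF. It was 2.09-fold lower in adult HSC than at P1.

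The promoter windows of these collagen receptors are shown because Itga1 and Ddr2 were higher in adult HSC than at P1 while Itga11 was lower. Each covers 300 bases, ending 50 bases past the annotated gene start in RefSeq's GRCm38.p6 tables, read on the gene's strand, and capitals mark a motif match. Itga1 lies at chr13:115101915-115102214 on the minus strand, Itga11 at chr9:62677605-62677904 on the plus strand, and Ddr2 at chr1:170088895-170089194 on the minus strand.
Itga1: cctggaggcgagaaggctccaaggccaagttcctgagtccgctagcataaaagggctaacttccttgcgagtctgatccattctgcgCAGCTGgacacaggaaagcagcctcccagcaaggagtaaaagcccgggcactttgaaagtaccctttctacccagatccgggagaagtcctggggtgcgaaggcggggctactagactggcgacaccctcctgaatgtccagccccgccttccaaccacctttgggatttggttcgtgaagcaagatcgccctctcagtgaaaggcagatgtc
Itga11: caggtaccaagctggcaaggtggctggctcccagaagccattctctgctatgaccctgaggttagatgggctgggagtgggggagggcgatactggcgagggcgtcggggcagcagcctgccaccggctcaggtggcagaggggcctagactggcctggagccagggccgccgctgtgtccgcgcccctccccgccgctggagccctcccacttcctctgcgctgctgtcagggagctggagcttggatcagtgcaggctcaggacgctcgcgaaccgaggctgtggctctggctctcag
Ddr2: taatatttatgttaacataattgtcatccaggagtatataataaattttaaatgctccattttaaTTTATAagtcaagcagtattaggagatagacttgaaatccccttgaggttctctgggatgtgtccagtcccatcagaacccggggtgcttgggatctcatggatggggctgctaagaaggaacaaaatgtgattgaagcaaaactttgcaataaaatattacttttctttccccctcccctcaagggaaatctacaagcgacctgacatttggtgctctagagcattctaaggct
Motifs for 5 factors were searched on both strands: the GC box GGGCGG, the AP-1 site TGANTCA, the TEAD site GGAATG, the E-box CAGCTG and the TATA box TATAAA. The Itga1 window held 1 E-box, the Ddr2 window held 1 TATA box on the other strand, and the Itga11 window held no match. Of 32851 promoter windows, 16.3% held that E-box, 13.6% the TATA box, 35.7% the GC box, 14.7% the TEAD site and 7.81% the AP-1 site. A match is a description of these letters only.

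Of the laminin receptor chains, Itga6 and Itgb4 were lowest in adult HSC. Itga6, whose product pairs with Itgb1 or Itgb4, had 2.69 at E11.5, 0.87 at E13.5, 2.10 at E14.5, 2.34 at E17.5 and 2.37 at P1, -4.07 in adult HSC, 3.88 in MSC and 3.85 in MEF. The adult HSC array stood alone at the low end, 86.6-fold lower than P1. Itgb4, the partner of Itga6 in epithelial hemidesmosomes, had -2.31 at E11.5, -1.84 at E13.5, -2.61 at E14.5, -2.18 at E17.5 and -1.42 at P1, -4.30 in adult HSC, -3.59 in MSC and -1.39 in MEF, and was 7.37-fold lower in adult HSC than at P1. Of 5 biliary markers, 1 was above background in adult HSC against 5 at P1, with summed signals of 0.0452 and 1.20 times the 75th percentile. Of 6 mesothelial markers, 1 was above background in adult HSC against 4 at P1, with summed signals of 0.0942 and 6.94. Of 5 Schwann and neural crest markers, 3 were above background in adult HSC against 4 at P1, with summed signals of 0.203 and 2.15. The part of these other cells in the lower Itga6 and Itgb4 levels was not tested.

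Itga7, the laminin receptor best known from muscle, had the widest range over the stages. Its level was -2.11 at E11.5, -3.43 at E13.5, -1.58 at E14.5, 1.13 at E17.5 and 2.58 at P1, -2.53 in adult HSC, -1.47 in MSC and 1.0 in MEF. Cells at P1 had 25.8-fold more Itga7 than cells at E11.5, and adult HSC had 34.5-fold less than cells at P1. The P1 array held the highest level of the 8. Myh11, smooth muscle myosin, had its highest level at P1 too (2.10), against -3.25 at E11.5 and -1.18 in adult HSC. Of 5 muscle markers, 4 were above background at E11.5 and in MEF, against 2 at P1, where the skeletal muscle factors Myog and Myod1 were below background. The part of muscle-type cells in the Itga7 levels was not tested.

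Itga3, a laminin receptor chain of epithelia, stood out in MSC alone, with 2.41 in MSC and -2.47 in MEF. The liver-derived arrays had -2.74 at E11.5, -1.05 at E13.5, -1.80 at E14.5, -2.09 at E17.5 and -2.01 at P1, and -1.51 in adult HSC. Dag1, dystroglycan, had 1.18 at E11.5, 1.59 at E13.5, 2.0 at E14.5, 2.88 at E17.5 and 2.39 at P1, 2.83 in adult HSC, 1.54 in MSC and 1.71 in MEF. Its level was 2.32-fold higher at P1 than at E11.5.

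Among the chains that bind RGD ligands, Itga8 lay higher on every liver-derived array than in MSC and MEF. Itgb3 did so on all but the E11.5 array by its brighter probe. Itga8, whose product with Itgb1 binds nephronectin and fibronectin and which is expressed in stellate cells, had 2.21 at E11.5, 3.28 at E13.5, 3.23 at E14.5, 3.29 at E17.5 and 3.60 at P1, 3.75 in adult HSC, -5.92 in MSC and 0.15 in MEF. All 6 liver-derived levels lay above both others, and from E13.5 on they lay between 3.23 and 3.75. Itgb3, the beta chain of the vitronectin receptor, had 0.73 at E11.5, 1.69 at E13.5, 3.15 at E14.5, 4.17 at E17.5 and 2.12 at P1, 5.33 in adult HSC, -3.28 in MSC and 1.46 in MEF. The groups overlapped for Itgb3, since the MEF array exceeded E11.5. By a second Itgb3 probe MEF, at -4.28, also exceeded E13.5, at -4.51. Adult HSC had 9.22-fold more Itgb3 than cells at P1.

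Itga2b, the platelet alpha chain that pairs with Itgb3, had -3.50 at E11.5, -2.12 at E13.5, -2.41 at E14.5, -1.29 at E17.5 and -2.24 at P1, 0.57 in adult HSC, -4.09 in MSC and -4.40 in MEF. It was 7.02-fold higher in adult HSC than at P1. Of 10 megakaryocyte and platelet markers, 5 were above background in adult HSC against 8 at P1, with summed signals of 7.01 and 2.47 times the 75th percentile. That sum was higher in MEF (12.6) and at E13.5 (7.47, with all 10 markers above background), where Itga2b was lower than in adult HSC. Pf4, a platelet chemokine, had 2.71 in adult HSC and 0.33 at P1, whereas Gp9, Ppbp, Gp5, Gp6 and Treml1 were below background in adult HSC. The part of platelets in the Itga2b level was not tested.

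Itgav, the alpha chain shared by the vitronectin receptors and the integrins that release active TGF-beta, varied less over the 8 arrays than any other alpha chain measured. It had -0.46 at E11.5, -0.76 at E13.5, -0.40 at E14.5, 0.11 at E17.5 and -0.42 at P1, -0.02 in adult HSC, 0.48 in MSC and 0.29 in MEF. Itgb5, a partner of Itgav that binds vitronectin, was above background everywhere, from 3.55 at E14.5 to 5.17 in adult HSC, with 2.54 in MSC and 4.40 in MEF. Itgb1, the common beta chain, spanned 2.16 at E13.5 to 3.79 in adult HSC, with 3.51 in MSC and 3.34 in MEF. Itga5, the alpha chain of the classical fibronectin receptor, had -1.35 at E11.5, -0.96 at E13.5, -1.28 at E14.5, -1.05 at E17.5 and -0.69 at P1, -2.70 in adult HSC, 1.53 in MSC and -0.20 in MEF. The adult HSC array was lowest, 4.02-fold lower than P1, and all liver-derived arrays lay below both others. Fn1, its ligand fibronectin, lay between 5.46 and 6.31 on all 8 arrays.

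The beta chains Itgb6 and Itgb8 join Itgav in receptors that activate latent TGF-beta. Itgb6, typical of epithelium, was below background on all 6 liver-derived arrays and had -2.81 in MSC and -4.91 in MEF. A second Itgb6 probe was below background on all 8 arrays. Itgb8, found in mesenchymal and other cells, had -4.48 at E11.5, -5.39 at E13.5, -5.21 at E17.5 and -4.93 at P1, -3.64 in adult HSC, -5.52 in MSC and -5.71 in MEF, and was below background at E14.5. The lowest level that counted as above background on an array was -6.58 to -5.36, so the p75NTR-positive, MSC and MEF levels of Itgb8 lay nearer to it than the adult HSC level.

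Itga4 and Itga9 bind Vcam1 and, for Itga9, tenascin-C and osteopontin. Itga4 had 0.93 at E11.5, -0.44 at E13.5, 0.32 at E14.5, 1.50 at E17.5 and 1.84 at P1 and -0.20 in MEF, and it was below background in adult HSC and in MSC. With the main processing the adult HSC level was at least 220-fold lower than at P1. The log2 difference of Itga4 ran from -8.15 to -3.86 over the settings. Itga9 had 2.61 at E11.5, 1.98 at E13.5, 2.96 at E14.5, 3.50 at E17.5 and 2.60 at P1, 4.45 in adult HSC and 0.04 in MEF, and it was below background in MSC. Adult HSC had 3.60-fold more Itga9 than cells at P1, so the related chains lay on opposite sides of P1. Of 10 endothelial markers, 8 were above background in adult HSC against 9 at P1, with summed signals of 225 and 17.4 times the 75th percentile. Plvap and Clec4g were at 7.71 and 3.57 in adult HSC, against 3.67 and 0.79 at P1, while Cdh5 and Lyve1 were at -3.97 and -5.14 in adult HSC, against -3.31 and -3.57 at P1. The part of endothelial cells in the higher Itga9 and Itga1 levels was not tested. Vcam1, the ligand of Itga4 and Itga9, had 3.78, 4.27, 4.87, 5.03 and 2.51 from E11.5 to P1 and 4.34 in adult HSC. Itgb7, the other beta chain of Itga4, lay between -5.02 at P1 and -3.63 at E14.5 in the p75NTR-positive cells, and had -4.16 in adult HSC, -2.10 in MSC and -3.88 in MEF.

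Probes of Itgb2 and the leukocyte alpha chains read below the 75th percentile of every array, apart from 1 Itgam probe. Itgb2, the beta chain that all leukocyte alpha chains of the Itgal, Itgam and Itgax kind need, lay between -4.31 and -3.58 on the 6 liver-derived arrays, with -4.07 in MSC and -2.20 in MEF. Itgal, a lymphocyte chain that binds Icam1, was at -5.22 to -4.46 on the liver-derived arrays where it was above background, and at -4.12 in MSC and -3.21 in MEF. Itgax, a chain of dendritic cells, was above background at the 4 fetal stages (-4.22, -3.18, -3.50 and -5.09 from E11.5 to E17.5) and below it on the other arrays. The Itgam probe with the highest signal, for a chain of macrophages and granulocytes, read 1.32 to 3.26 on the liver-derived arrays, 1.97 in MSC and 1.61 in MEF. The other Itgam probes read -6.66 to -3.46 over all 8 arrays, so the Itgam level depends on the probe. Of 11 leukocyte and Kupffer markers, 4 to 8 were above background on the liver-derived arrays, 6 in MSC and 10 in MEF, with summed signals of 0.838 to 2.05, 2.12 and 24.4 times the 75th percentile. The part of leukocytes in the higher Itgb2 and Itgal levels of MEF was not tested.

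The 4 syndecans parted in adult HSC. Sdc1, the syndecan of epithelia and plasma cells, had 1.28 at E11.5, 1.58 at E13.5, 1.95 at E14.5, 1.52 at E17.5 and 1.21 at P1, -4.00 in adult HSC, 1.08 in MSC and 1.99 in MEF. The adult HSC level was 37.0-fold lower than at P1, and all 7 other arrays lay between 1.08 and 1.99. Sdc3, best known from the nervous system, had 0.66 at E11.5, 0.45 at E13.5, 0.87 at E14.5, 1.91 at E17.5 and 1.54 at P1, 3.53 in adult HSC, -1.11 in MSC and 0.83 in MEF. It was 3.96-fold higher in adult HSC than at P1. Sdc2, the syndecan of mesenchymal cells, was higher at each stage than at the one before, with 0.94, 1.36, 1.68, 2.31 and 2.79 from E11.5 to P1, 2.56 in adult HSC, 2.82 in MSC and 2.76 in MEF. Sdc4, a widespread syndecan of focal adhesions, had -3.88 at E11.5, -3.37 at E13.5, -1.83 at E14.5, -2.35 at E17.5 and -1.49 at P1, -0.41 in adult HSC, 1.43 in MSC and -1.12 in MEF.

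Cd44, the main cell surface hyaluronan receptor, had -1.58 at E11.5, -2.11 at E13.5, -1.46 at E14.5, 0.39 at E17.5 and 1.02 at P1, -0.69 in adult HSC, 1.23 in MSC and 3.28 in MEF. By this probe, the one with the highest mean, each liver-derived array lay below both others, which did not hold for every Cd44 probe. Cd44 was 6.10-fold higher at P1 than at E11.5 and 3.27-fold lower in adult HSC than at P1. The MSC level was 4.16-fold lower than the MEF level by this probe, but the mean of the 4 Cd44 probes put MSC above MEF by 0.19 on the log2 scale.

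**Figure D2:**
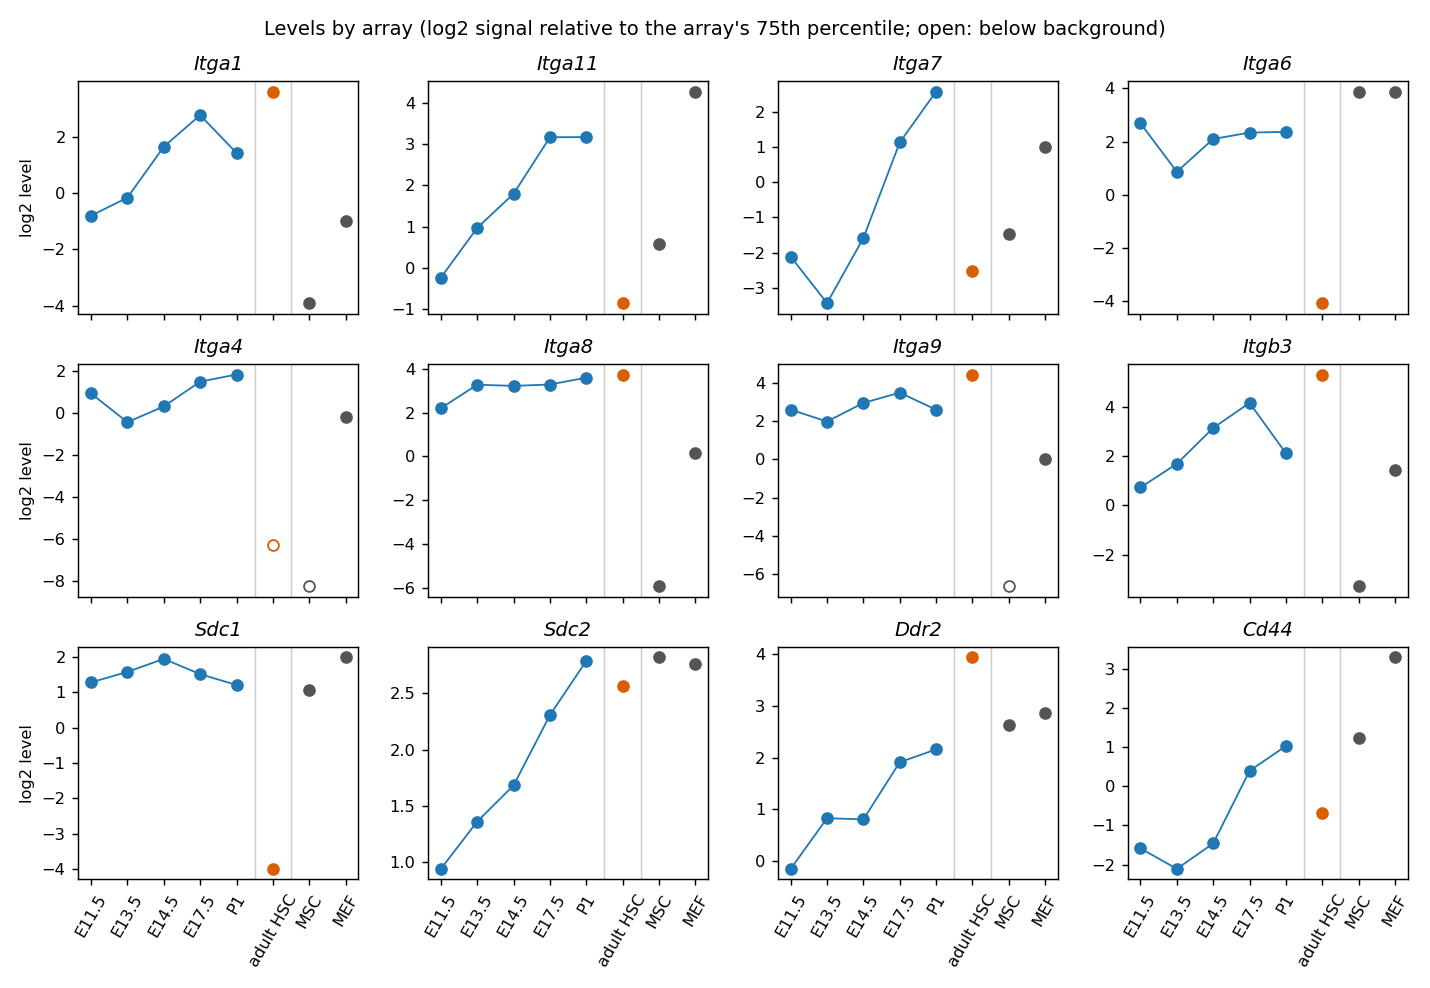
Log2 level relative to the 75th percentile of each array for 12 members, with the 5 stages joined by a line (blue), adult HSC in orange, and MSC and MEF in grey; open circles were below background, and each panel has its own vertical scale. Itga11, Sdc2, Ddr2 and Cd44 were higher at P1 than at E11.5, whereas the adult HSC point lies near the bottom of the panels for Itga6, Itga4, Sdc1 and Itga11 and at the top for Itga1, Itga9, Itgb3 and Ddr2.

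The liver-derived cells as a group were compared with MSC and MEF to ask which receptors set hepatic mesenchyme apart. The largest differences in favour of the liver-derived cells were those of Itga9, by 6.31 ± 1.51 (SE) on the log2 scale, and Itga8, by 6.11 ± 1.32, at limma adjusted p = 0.0977 and 0.0741. No array in this fit replicates another, so the SE reflects the spread between stages and cell types. Of the 31 members tested, 1 passed an adjusted p under 0.05, Itgb6, which was at least 3.81-fold lower in the liver-derived cells (limma adjusted p = 0.0213, 6 liver-derived arrays against 2). Over all 16521 genes, 0.732% were called lower and 0.841% higher, 1.57% in all. At an unadjusted p under 0.05 there were 12 members, against 19.7% of all genes.

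The groups did not overlap for 5 members that were higher in the liver-derived cells (Itga1, Itga2, Itga8, Itga9 and Itga2b), against 12.6% of all genes. For Itga2 this is no measured separation, since it was below background on 4 of the 6 liver-derived arrays and in MSC and MEF. They did not overlap for 6 that were lower (Itga6, Itga5, Itgav, Itgal, Itgb6 and Cd44), against 10.7% of all genes. By a second Itgav probe the groups overlapped, with -0.24 at E11.5, -0.32 in adult HSC, -0.44 in MEF and -0.60 in MSC. They overlapped by a dim Cd44 probe (-3.43 at E14.5, -4.95 in MEF) and by another (-4.37 at P1, -4.42 in MEF). A further Cd44 probe kept them apart (-0.70 at P1, 1.27 in MEF, 2.78 in MSC). The second Itgal probe, above background in MEF alone, read -5.67 at E11.5 and -6.57 in MSC. The other 20 members overlapped. Itgax was below background at P1 and in adult HSC, and in MSC and MEF, so its difference is not a measured fold. The median log2 difference was -0.48 over the members and 0.01 over all genes tested, and 15 of the 31 estimates were above 0 (19 with normexp background correction, 13 with median normalization). The Itgb6 call was lost with slide as a block (-3.84, limma adjusted p = 0.085, over all settings 0.00158 to 0.816), the same difference as within slide 2 alone. Leaving out MEF sets the liver-derived cells against the MSC array alone. The differences from MSC were 9.15 for Itga8, 9.65 for Itga9, -4.28 for Itga3 and -4.72 for Itgb6. Itga9 was below background in MSC and Itgb6 on all 6 liver-derived arrays, so their differences are not measured folds. Itga8, Itga9 and Itga3 were called in no setting that kept both arrays.

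**Figure D3:**
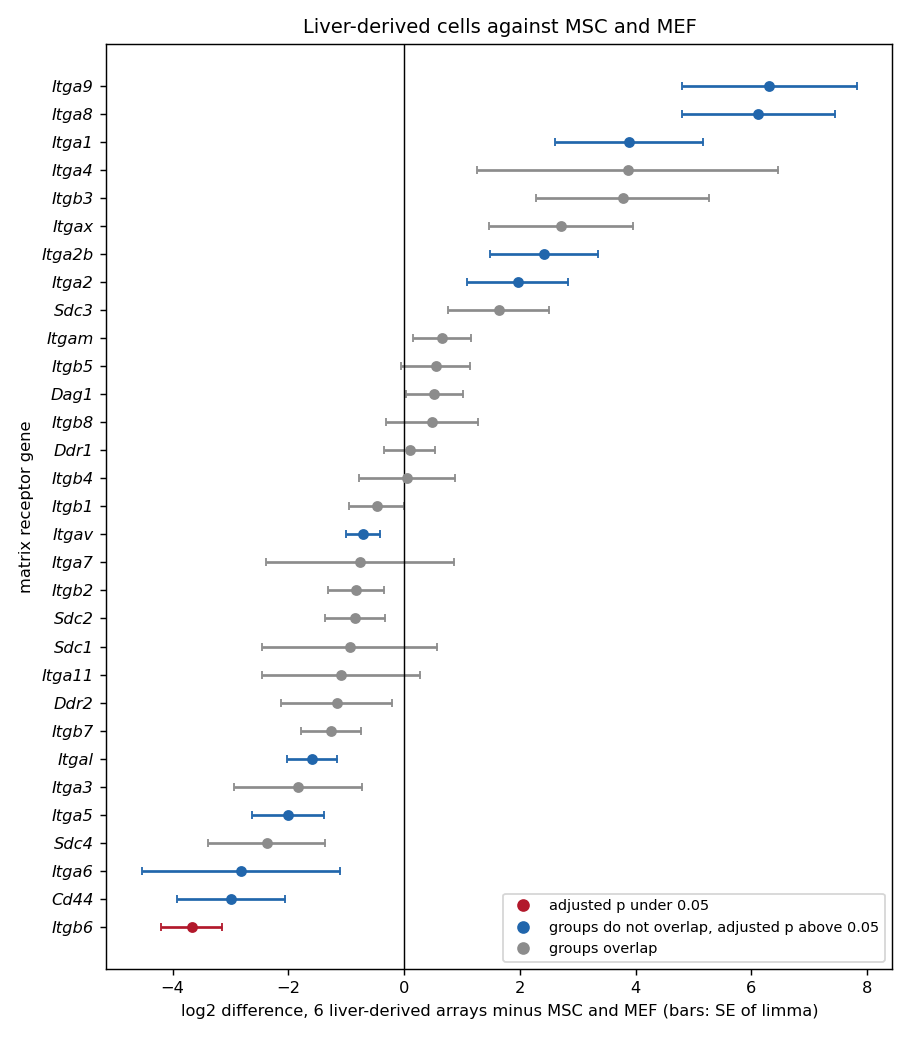
Log2 difference of each of the 31 tested members, 6 liver-derived arrays minus MSC and MEF (points), with the SE of limma (bars). Itga9 and Itga8 lie farthest to the right, at 6.31 and 6.11, and Itgb6, the member with an adjusted p under 0.05, farthest to the left; Itgb6 was below background on all liver-derived arrays, and Itga2 and Itgax were below it in MSC and MEF, so these 3 points are not bounds.

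Over the 5 stages of p75NTR-positive cells, more members had an upward than a downward slope. Slopes were positive for 23 and negative for 7 of the 30 members tested, against 45.4% positive over all genes, and the median slope per stage was 0.21 over the members and -0.03 over all genes. No member passed an adjusted p under 0.05 by limma, nor did any of 15538 genes (0%). At an unadjusted p under 0.05, 10 members sloped upward and 0 downward, against 12.5% and 15.4% of all genes. These were Itga11 at 0.90 ± 0.11 (SE) per stage, Sdc2 at 0.47 ± 0.06, Ddr2 at 0.57 ± 0.09, Itga7, Sdc4, Cd44, Dag1, Itga1, Sdc3 and Itga8, with limma adjusted p between 0.063 and 0.166. Itga11 and Sdc2 were the members higher at each step among 26 measured at all stages, against 3.33% of genes, and none was lower at each step, against 7.74%. Itga11, Sdc2 and Ddr2 were called with a filter on every array and with a trended robust prior (limma adjusted p 0.0254 to 0.0418, and 0.0254 to 0.8 over all settings, the highest for Sdc2). That filter called 610 of the 12689 genes measured at all stages, and that prior 1137 of 15538 genes.

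Since P1 was on the other slide than the fetal stages, slopes were also taken over the 4 fetal arrays alone. They were 1.1 per stage for Itga11, 0.44 for Sdc2, 0.62 for Ddr2, 1.16 for Itga7, 0.61 for Sdc4 and 0.66 for Cd44, all upward as over the 5 stages. Itgb3 sloped by 1.18 over the fetal arrays and by 0.53 over the 5 stages, its P1 level being lower than at E17.5. Cells at P1 had at least 2-fold more signal than cells at E11.5 for 11 of 29 members, against 19.4% of all genes. These included Itga7 at 25.8-fold, Itga11 at 10.5-fold, Cd44 at 6.10-fold, Sdc4 at 5.24-fold, Ddr2 at 4.97-fold, Itga1 at 4.71-fold and Sdc2 at 3.62-fold. Itgax was lower, by at least 2.97-fold, against 14.7% of all genes lower. In this pair slide and stage cannot be told apart, and pancreatic acinar markers summed to 55.3 times the 75th percentile at P1, against 0.535 at E11.5. The part of that tissue was not tested.

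Adult HSC differed from P1 cells in both directions, on arrays of the same slide with 1 array each and so with no test. Of 28 members, 8 were at least 2-fold higher, against 14.2% of all genes, and 9 at least 2-fold lower, against 23.9%. The higher members were Itgb3, Itga2b, Itga1, Sdc3, Itga9, Ddr2, Itgb8 and Sdc4, from 9.22-fold to 2.11-fold. The lower members were Itga4, Itga6, Sdc1, Itga7, Itga11, Itgb4, Itga5, Cd44 and Ddr1, from at least 220-fold to 2.09-fold with the main processing. Pancreatic acinar markers summed to 55.3 times the 75th percentile at P1 and 0.204 in adult HSC. Hepatocyte markers summed to 32.2 at P1 and 2.86 in adult HSC, whereas endothelial markers summed to 17.4 and 225. The part of these other cells in the member differences was not tested. Median normalization, which moves the median of all genes to 0.72 on the log2 scale from -0.06, gave 14 higher and 7 lower.

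**Figure D4:**
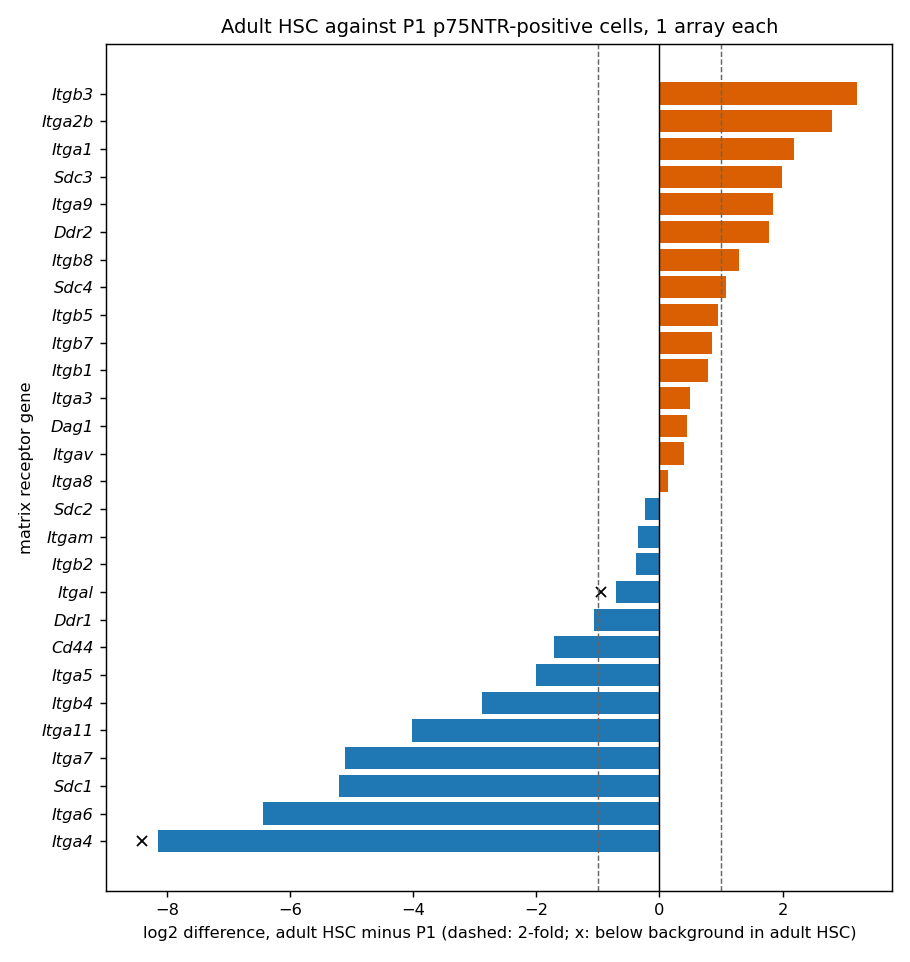
Log2 difference between the adult HSC and the P1 array for the 28 members above background on at least 1 of them; dashed lines mark a 2-fold difference and crosses a probe below background in adult HSC. Itgb3 is highest at 3.20 and Itga4 lowest, where the bar is the measured difference and the bound with the main processing is at least 220-fold.

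The MSC and MEF arrays, also on 1 slide and without a test, differed by 2-fold or more for 17 of 29 members. In MSC 5 were higher, against 13.9% of all genes: Itga3 by 29.6-fold, Sdc4 by 5.87-fold, Itgb6 by 4.27-fold, Itgb7 by 3.44-fold and Itga5 by 3.31-fold. In MSC 12 were lower, against 24.3% of all genes. With the main processing Itga9 was at least 98.8-fold and Itga4 at least 83.7-fold lower. Itga8 was 67.0-fold, Itgb3 26.6-fold, Itga11 12.8-fold and Itga1 7.54-fold lower. Over the settings the log2 difference ran from -6.67 to -3.08 for Itga9 and from -8.05 to -2.46 for Itga4. Itga6 (3.88 in MSC and 3.85 in MEF), Sdc2 (2.82 in MSC and 2.76 in MEF) and Itgb1 (3.51 in MSC and 3.34 in MEF) were among the 12 less than 2-fold apart.

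Integrin chains work in pairs, so the arrays were read for pairs with both transcripts above background. Of 24 known mouse heterodimers 22 could be measured, 13 had both chains on all 8 arrays and 1, Itgad with Itgb2, on none. The number of pairs was 19 at each fetal stage, 18 at P1, 15 in adult HSC, 16 in MSC and 19 in MEF. Itga4 with Itgb1 or Itgb7 was missing in adult HSC and MSC, and Itga9 with Itgb1 in MSC. Itgav with Itgb6 was missing on all 6 liver-derived arrays, and Itgav with Itgb8 at E14.5. The counts describe transcripts and not receptors on the cell surface.

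Partners of these receptors were read from 4 further gene lists. Of 28 measured genes of focal adhesions and integrin activation, 0 were called by limma between the liver-derived cells and the others at an adjusted p under 0.05, and 5 at an unadjusted p under 0.05, against 19.7% of all genes. Tns1, tensin, which ties beta chains to actin, had 3.30, 3.80, 3.97, 4.71 and 4.80 from E11.5 to P1, 6.21 in adult HSC, 0.22 in MSC and 3.25 in MEF. Tln2, a talin that switches integrins on, had 3.31 in adult HSC against -0.36 at P1. Cav1, caveolin, was below background at E11.5, at E14.5 and in adult HSC. Its level was -4.96 at E13.5, -4.04 at E17.5, -2.39 at P1, -0.04 in MSC and -0.19 in MEF. Nedd9, a docking protein of adhesion kinases, was at 1.0 in adult HSC against -1.13 at P1. Over the stages 22 of 27 slopes of this list were positive, 8 of them at an unadjusted p under 0.05, against 45.4% and 12.5% of all genes, with a median of 0.11 per stage.

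Of 24 ligands and hyaluronan synthases, 1 was called, Icam2, which binds Itgal with Itgb2, against 0.841% of all genes called higher. Icam2 was higher in the liver-derived cells by 4.86 ± 0.79 (SE; limma adjusted p = 0.033). Vtn, vitronectin, a ligand of Itgav with Itgb3 and a hepatocyte product, had -3.99 at E11.5, 2.27 at E13.5, 4.47 at E14.5, 0.12 at E17.5 and -0.03 at P1, 1.19 in adult HSC and -5.56 in MEF, and was below background in MSC. Hepatocyte markers also had their highest summed signal at E14.5 (809 times the 75th percentile), against 6.11 at E11.5 and 2.86 in adult HSC, and their part in Vtn was not tested. Spp1, osteopontin, was above background at E17.5 (-2.80), P1 (0.11), MSC (0.19) and MEF (-0.43) and below it at earlier stages and in adult HSC. Has1, which makes hyaluronan, was at -2.69 at E17.5 and -0.03 at P1, and below background at earlier stages and in adult HSC. Fbln5, an elastic fibre protein that binds integrins, had -1.24, 2.08, 4.05, 4.89 and 4.75 from E11.5 to P1.

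Of 20 dystroglycan partners and glycosylation enzymes, 1 was called lower in the liver-derived cells, Dtna, dystrobrevin, against 0.732% of all genes. Its log2 difference was -2.66 (limma adjusted p = 0.0125). Dtna was below background on every liver-derived array, so its fold is a bound, at least 1.91-fold lower. At an unadjusted p under 0.05 there were 5 genes of this list, against 19.7% of all genes. Of 18 glypicans and other matrix receptors, 0 were called by limma in the liver comparison, with 4 at an unadjusted p under 0.05, against 19.7% of all genes. Gpc3, a glypican of fetal tissues, had 4.04, 4.14, 4.12, 3.96 and 3.78 from E11.5 to P1, -3.56 in adult HSC and 2.41 in MEF, and was below background in MSC. Gpc4, another glypican, had -4.86, -3.14, -2.20, -0.16 and -0.16 from E11.5 to P1 and 1.42 in adult HSC. Itgbl1, a secreted protein with integrin beta-like repeats, had -5.42, -5.20, -3.38 and -1.33 from E13.5 to P1. It was below background at E11.5 and in adult HSC. Cspg4, the proteoglycan NG2 of pericytes, had 1.87 at P1 and -3.20 in adult HSC.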

How the data were processed

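RNA of each of the 8 groups was hybridised to a 1-color Agilent array. The deposited intensity values are spot signals corrected for background in Agilent Feature Extraction 11.5.1.1 (protocol GE1_1105_Oct12), per the file headers, without normalization between arrays. The authors scaled arrays to the 75th percentile and took log2, per the labels; their deposited log2 table, with column medians of -4.48 to -3.55, exceeds the values used here by array medians of 0.102 to 0.154, is not centred by gene, and matched within 0.02 after that offset for 93.2% (MSC), 96.7% (E14.5) and 100% (others) of probes. The source of that offset was not stated.

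Levels here are log2 ratios of the processed signal to the 75th percentile of non-control spots on the same array (percentile signal 243 to 416). Outlier spots were dropped and spots of a probe averaged. Files held no gene names, so RefSeq accessions named 67.4% of 39429 probes through RefSeq's GRCm38.p6 gene table; the array's own build differs and no array positions were used. Per gene the probe with the highest mean was taken. Genes measurable (well above background) on 1 or more of the arrays in a comparison were tested with limma 3.58.1 in R 4.3.3, Benjamini-Hochberg adjusted over all genes, after tests on simulated data. Pairs with 1 array a side have no test and were called at 2-fold. Where a side was below background, a fold is a bound against that array's dimmest signal still counted as well above background, or the probe's own signal if higher. The number of arrays limits the precision.

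Alternatives were normexp background correction (offset 50, on median spot brightness since mean signals were not used here), median and quantile normalization, 3 filters, the mean of probes, the authors' table, a floor, a trended robust prior, slide as a block or alone, embryonic day, and leaving out each array. All members are named, and from each other list up to 3 genes a comparison with the largest change, apart from a gene that is not reported here; marker genes and Fn1, Vcam1 and others named beside a member were chosen after their values were seen. The members and lists were chosen with earlier results of these data known.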

Additional observations from a re-analysis of the deposited data

Results flagged for a closer look

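Within the 6 liver-derived arrays, 1 array stood apart from the other 5 for 5 of the 30 members tested, by Dixon's ratio of the gap to the nearest array over the whole range set against its critical value. Chance flags about 1 in 20 groups, and the arrays are different stages and not replicates. In 4 of these 5 cases the adult HSC array was the low one. By the same ratio 1 array stood apart for 13% of 15722 genes, and the adult HSC array was the low one for 5.63%. The ratio was 0.876 for Sdc1 (-4.00 in adult HSC, nearest array 1.21), 0.731 for Itga6 (-4.07, nearest 0.87), 0.721 for Itga4 (below background in adult HSC, nearest array -0.44) and 0.674 for Itga5 (-2.70, nearest -1.35). Itga8 stood apart at the other end of the series, with E11.5 low at a ratio of 0.662 (2.21 at E11.5, nearest array 3.23).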

How the results depend on the processing

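Among the 31 members the liver comparison called 1 by limma, and it called 0 with normexp, with a filter on every array, with the mean of probes, with a floor, with slide as a block and on slide 2 alone, 2 with quantile normalization, and 0 to 4 when 1 array was left out. The call is Itgb6, whose difference was 0.28 (adjusted p = 0.816) with normexp; the cause was not tested. Over all genes the 260 calls became 49 with normexp, 157 with a filter on every array, 74 with slide as a block, 0 on slide 2 alone and 84 to 1282 when 1 array was left out (1282 without MEF, 526 without adult HSC, 167 without P1, 93 without E13.5, 90 without E14.5 and 84 without E17.5). For the stage slope 0 members became 3 with a filter on every array or a trended robust prior, and 0 genes became 93 with quantile normalization, 610 with a filter on every array and 1137 with the trended robust prior. Leaving out a stage gave 0 calls each time. Members with positive estimates numbered 12 to 18 (liver) and 22 to 24 (slope) when 1 array was left out.

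For P1 against E11.5 the 1 lower member became 0 with normexp or a filter on both arrays, and 2 with quantile normalization or the mean of probes. For adult HSC against P1 the 8 higher members became 14 with median normalization, and for MSC against MEF the 5 higher members became 3 with normexp. Cd44 reversed between MSC and MEF with the mean of probes (0.19). The median of all genes in the liver comparison moved from 0.01 to 0.34 with normexp and -0.36 with median normalization, and in MSC against MEF from 0.03 to 0.63 with median normalization. No paired analysis was possible because each group has 1 array. Chains near background, such as Itgb6, Itgb8, Itgal and Itgax, are the members whose levels brightness limits most.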

Other observations

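Itga1 and Itgb3 took the same order over the 6 liver-derived arrays as Lrat, the enzyme that esterifies retinol in stellate cells: E11.5, E13.5, P1, E14.5, E17.5 and adult HSC, from low to high. Of 25 members above background on all 6 arrays, these 2 had that order, against 1.41% of 11860 genes. Of 9 other stellate markers, Colec11 and Hgf had it. Lrat was chosen for this after its values were seen, the arrays are shared, and the order is a description with no test.

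Syndecans and glypicans, the membrane heparan sulfate proteoglycans, each had a member that was much lower in adult HSC than in the p75NTR-positive cells and a member that was higher. Sdc1 was at -4.00 in adult HSC against 1.21 at P1, and Gpc3 at -3.56 in adult HSC against 3.78 at P1. Sdc3 was at 3.53 in adult HSC against 1.54 at P1, and Gpc4 at 1.42 in adult HSC against -0.16 at P1.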
